A study of Mus musculus with 12 samples.

Results

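The data described here are the 6 array-based comparative genomic hybridizations (aCGH) of spontaneous liver tumors, chosen by tumor names that begin with Spon, of 12 arrays in all. Each array compared DNA of 1 tumor with DNA of the distant non-tumor liver of the same untreated Mdr2-KO/FVB mouse (strain FVB.129P2-Abcb4tm1Bor). The tumors were Spon1M and Spon2M from 2 males aged 14 months and Spon3F, Spon4F, Spon5F and Spon6F from 4 females aged 13 months. The other 6 arrays, of tumors that grew after partial hepatectomy, were not used. Tumor DNA was labelled red (Cy5) and liver DNA green (Cy3), without dye swaps, so that a property of a probe that favors 1 dye and a shift common to all tumors cannot be told apart. Both tissues of every mouse lacked functional Mdr2.

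Mdr2, encoded by Abcb4, moves phospholipid from the hepatocyte into bile. Without it bile salts damage the bile ducts, the liver stays inflamed, and hepatocellular carcinomas (HCC) arise in older mice. Carcinomas gain or lose whole chromosomes through errors of mitosis, and can also multiply short stretches that carry growth-promoting genes or delete stretches that carry tumor suppressors. In aCGH such changes appear as neighboring probes that shift together.

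All values are log2 ratios of tumor over own liver after each array was centred on its autosomal median, so 0 means the typical copy number of that tumor. An extra copy of a region in every cell of an otherwise diploid tumor would give 0.58 and the loss of 1 copy -1. A chromosome, a 5-Mb bin or a gene at 0.2 or more (1.15-fold) is called gained below, and one at -0.2 or less (0.871-fold) lost. These words describe 1 tumor on 1 array and carry no test. Regions past 0.4, the filter of the study's methods, are given separately. The arrays held 42020 to 42329 probes after filtering. The spread between neighboring probes was lowest in Spon1M (0.147) and highest in Spon2M (0.265) and Spon5F (0.221). Arrays of Spon1M, Spon2M, Spon3F and Spon4F shared slide 3, and those of Spon5F and Spon6F slide 2, so both males lay on slide 3.

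No bin was gained or lost in all tumors, and the 6 profiles differed in which chromosomes were shifted and in how much of the genome was. Across the 6 tumors, 0 of 19 autosomes (0%), 0 of 479 bins (0%) and 0 of 10316 genes (0%) differed from 0 with limma at an adjusted p under 0.05. At an unadjusted p under 0.05 the counts were 1 autosome, 33 bins and 1337 genes.

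The share of the genome that was shifted ranged widely. Spon2M had 97 gained bins (20.3%) and 71 lost bins (14.8%). Spon1M had 77 gained (16.1%) and 71 lost (14.8%). Those 2 male tumors thus carried 316 of the 450 shifts found over all tumors and bins. Spon5F had 24 gained bins (5.01%) and 37 lost (7.72%). Spon4F was almost free of losses, with 41 gained bins (8.56%) and 2 lost (0.418%). In Spon6F losses prevailed, with 5 bins gained (1.04%) and 20 lost (4.18%), and Spon3F was nearly flat, with 1 gained bin (0.209%) and 4 lost (0.835%). Sex, age and slide cannot be told apart from the individual tumors in this order.

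**Figure D1:**
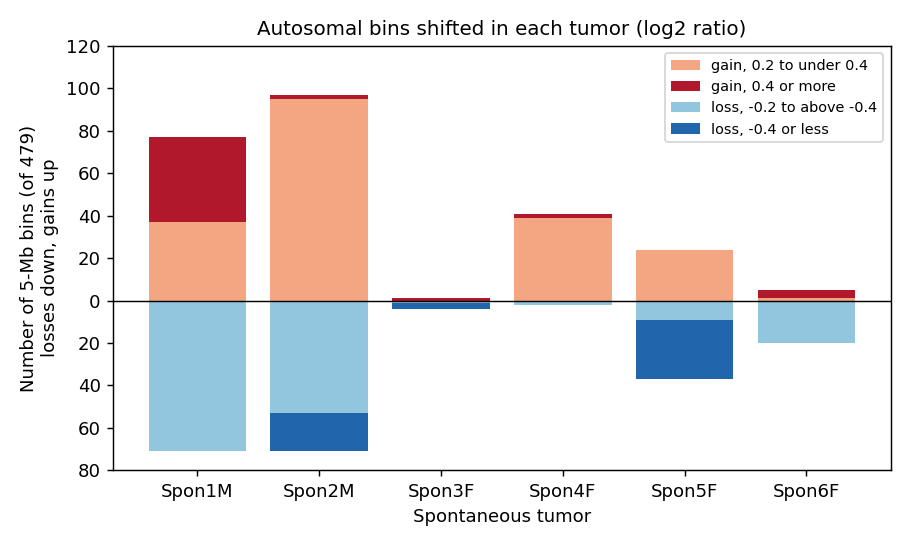
Number of 5-Mb autosomal bins, of 479, that were gained (upward bars) or lost (downward bars) in each tumor, with pale parts for log2 ratios between 0.2 and 0.4 in size and dark parts for 0.4 or more. Spon1M and Spon2M had 148 and 168 shifted bins and Spon3F had 5.

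Most of these shifts were shallow. Of the 450 shifts, 352 (78.2%) lay between 0.2 and 0.4 in size, and only 98 reached 0.4, 49 in each direction. In Spon2M, 148 of 168 were shallow, and in Spon4F 41 of 43. Spon5F was different, with 28 of its 61 shifted bins at -0.4 or less. The 40 bins past 0.4 in Spon1M were all gains, whereas its 71 lost bins reached no lower than -0.35, on chromosome 13. Neighboring bins shifted together: 41 runs of at least 3 consecutive bins held 203 gained and 191 lost bins, and 33 of these runs had a median under 0.4 in size.

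Whole chromosomes were the main unit of change in Spon2M. Its chromosome 1 (0.28), chromosome 12 (0.27), chromosome 16 (0.26) and chromosome 18 (0.22) were gained. Chromosome 6 (-0.24), chromosome 4 (-0.38) and chromosome 19 (-0.42) were lost. Each of these 7 shifts ran the full length of its chromosome: every one of the 37 bins of chromosome 1 lay above 0, and all 30 bins of chromosome 4 and all 13 of chromosome 19 passed -0.2. Its highest bin lay on chromosome 1, at 0.43 from 15 to 20 Mb, and its lowest on chromosome 4, at -0.61 from 65 to 70 Mb. Chromosome 4 carries the Cdkn2a locus, which encodes cell cycle inhibitors.

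Spon4F showed the same kind of change with fewer chromosomes. All 23 bins of chromosome 12 (median 0.36) and all 18 bins of chromosome 18 (0.32) were gained. Its highest bin was that from 105 to 110 Mb of chromosome 12 (0.43), and its lowest that from 45 to 50 Mb of chromosome 3 (-0.21). Below the threshold, chromosomes 10 (0.16), 15 (0.16), 7 (0.14) and 9 (0.11) were also raised over their full length, with every bin above 0. The bins of chromosome 15, for example, ranged from 0.12 to 0.18, with an SD of 0.017 over 18 bins. The remaining autosomes of this tumor lay between -0.09 and 0.02. With normexp background correction, an alternative estimate of the scanner background, 103 rather than 43 bins of Spon4F passed 0.2.

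**Figure D2:**
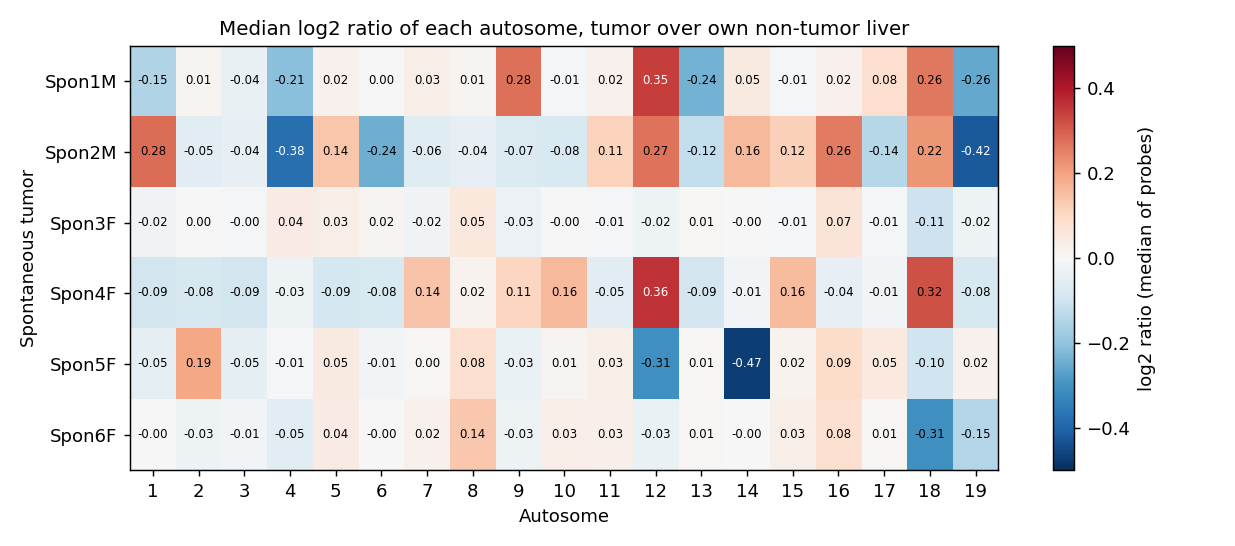
Median log2 ratio of the probes of each autosome (columns) in each tumor (rows), red for higher in the tumor and blue for lower. Chromosomes 12 and 18 are red in Spon1M, Spon2M and Spon4F, chromosome 12 is blue in Spon5F and chromosome 18 in Spon6F, and the row of Spon3F lies between -0.11 and 0.07.

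In Spon5F the losses prevailed. All 21 bins of chromosome 14 were lost, with a median of -0.47 and a lowest bin of -0.64. Chromosome 14 carries Rb1, the retinoblastoma tumor suppressor, and Fhit. On chromosome 12 the first 60 Mb were level, the 10 bins from 60 to 110 Mb were lost with a median of -0.50, and the bin from 110 to 115 Mb lay at 0.04. The last 4 bins of chromosome 4, from 135 to 155 Mb, were lost with a median of -0.31. On chromosome 2, 24 of 36 bins were gained, all of them beyond 35 Mb and none above 0.31.

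Spon1M combined chromosome-wide, segmental and focal changes. Chromosome 19 was lost (-0.26), as were most of chromosome 13 (-0.24, 19 of 24 bins) and 21 of 30 bins of chromosome 4 (-0.21). On chromosome 1, 2 runs of 9 and 8 bins between 20 and 125 Mb were lost with medians of -0.30 and -0.29. Every one of the 25 bins of chromosome 9 lay above 0 (median 0.28), and 13 neighboring bins from 35 to 100 Mb had a median of 0.39. Chromosome 12 alternated between gained and level parts: the first 50 Mb had a median of 0.67, the bins from 50 to 70 Mb lay between -0.08 and 0.06, those from 70 to 95 Mb had a median of 0.30, and the next level part was followed by another gain of 0.42 and 0.41 at 105 to 115 Mb. On chromosome 18 the 9 bins from 25 to 70 Mb had a median of 0.49 and a highest bin of 1.07, and on chromosome 2 the 5 bins from 145 to 170 Mb a median of 0.42. Shorter gains stood near the centromeric ends of chromosome 17 (0.78 and 0.85 in its first 2 bins), chromosome 14 (5 to 30 Mb, 0.46), chromosome 4 (10 to 15 Mb, 0.82), chromosome 5 (first 3 bins, 0.26) and chromosome 11 (first 4 bins, 0.25). Chromosome 7 was gained there too, at 0.52 and 0.35 in its first 2 bins and with a median of 0.21 from 15 to 40 Mb.

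Spon3F and Spon6F had few changes besides their amplifications. In Spon3F no autosome passed 0.2 in either direction, and 18 of 19 lay within 0.1 of 0. Its last 4 bins of chromosome 1, from 180 Mb to the end, were lost with a median of -0.42 and a lowest bin of -0.43, while the bin before them lay at -0.0024. In Spon6F the 16 bins of chromosome 18 from 10 Mb to the end were all lost (median -0.32, lowest -0.39). The medians of chromosome 8 (0.14) and chromosome 19 (-0.15) did not pass the threshold. Every bin of chromosome 8 lay above 0, with 1 gained, and every bin of chromosome 19 below 0, with 3 lost.

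Focal amplifications of 2-fold or more, taken as stretches in which the running median of 5 probes reached 1, occurred in 3 tumors. The highest were 2 stretches in Spon1M. The first, of 30 probes at chromosome 12, 39403155 to 44681116 (build mm8), had a median of 3.09, or 8.52-fold, and covered Scin, Immp2l, Dock4, Ifrd1 and Zfp277. The second, of 22 probes at chromosome 15, 60768988 to 64848282, had a median of 3.11, or 8.66-fold, and covered Myc, Ddef1 and Adcy8. Myc drives cell growth and proliferation and is a common target of amplification in liver cancer. Its single probe read 3.09, and the 5 probes of the neighboring transcript AK043790 averaged 3.22 (9.33-fold). Spon1M held 6 further such stretches of 0.0684 to 1.76 Mb on chromosomes 9, 14 and 18, with medians of 1.05 to 1.49. One on chromosome 18, 46409089 to 48173841, covered 17 gene names.

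In Spon3F the centromeric end of chromosome 18 formed 1 stretch of 37 probes, 3287674 to 6086688, with a median of 2.40 (5.27-fold). It covered Crem, a cAMP-responsive transcription factor, Cul2, a scaffold of ubiquitin ligases, Map3k8, a kinase that activates MAP kinase signalling, Bambi, a decoy receptor of the TGF-beta pathway, Zeb1, a repressor of epithelial genes, and Svil. Levels were not even within it: Crem read 1.95, Cul2 1.93, Papd1 2.24 and Map3k8 2.27, whereas Zeb1 (3.08) and AK138232 (2.99) lay higher toward its far end. The bin from 5 to 10 Mb, which holds the far end of this stretch, had a median of -0.07.

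In Spon6F the same end of chromosome 18 was raised less but over a longer distance: a running median over 11 probes stayed at 0.4 or more from 3417607 to 10818056, with a median of 0.69 (1.62-fold) over 97 probes. Crem read 0.67, Zeb1 0.91, Ccny 0.64 and Rock1 0.80, while Cabyr, beyond the edge, read -0.42. The rest of that chromosome was the lost part described above. This tumor also amplified chromosome 17, 42512511 to 47500770, with a median of 1.31 (2.47-fold) over 167 probes and 88 gene names. Its highest bin was the one from 40 to 45 Mb there (1.21). Vegfa, the main growth factor of blood vessels, lies in it and read 1.24 (2.36-fold). Xpo5, which exports microRNA precursors from the nucleus, read 1.54. Runx2, Ccnd3 and Hsp90ab1 lie in it as well.

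Chromosomes 12 and 18 were shifted most often and in both directions. On chromosome 12 all 23 bins were gained in at least 2 tumors and 15 in 3 (Spon1M, Spon2M and Spon4F), while 10 were lost in Spon5F. On chromosome 18, 17 of 18 bins were gained in at least 2 tumors and 8 in at least 3, and 16 were lost in Spon6F. No other chromosome had a bin gained in 3 tumors. A single bin was gained in 4 of 6 tumors, the first of chromosome 18: 0.32 in Spon1M, 0.13 in Spon2M, 2.13 in Spon3F, 0.22 in Spon4F, -0.19 in Spon5F and 0.75 in Spon6F. Its mean was 0.56 with a limma standard error (SE) of 0.27 (limma adjusted p = 0.632).

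**Figure D3:**
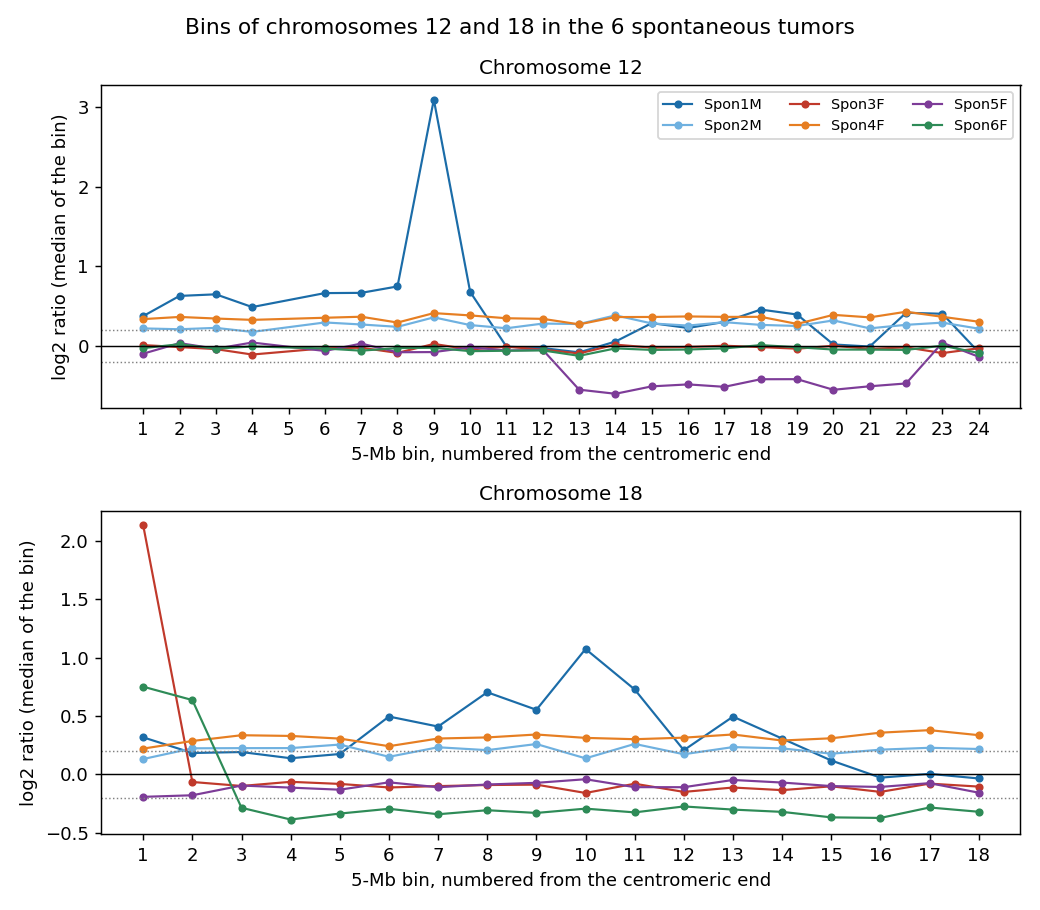
Median log2 ratio of each 5-Mb bin along chromosomes 12 (top) and 18 (bottom), 1 line per tumor, with dotted lines at -0.2 and 0.2. Spon4F and Spon2M run evenly above 0 on both, Spon1M alternates and peaks at 3.09 and 1.07, Spon5F drops to about -0.50 in the far part of chromosome 12, and Spon3F and Spon6F are high only at the start of chromosome 18.

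Averaged over the tumors, chromosome 12 lay at 0.10 ± 0.27 (SD, n = 6) and chromosome 18 at 0.05 ± 0.25, with 3 tumors above 0 and 3 below on each. Losses recurred on chromosomes 4 and 19, in which 23 of 30 and 12 of 13 bins were lost in at least 2 tumors and 3 bins of each in 3. Both chromosomes were lost in Spon1M and Spon2M. The tumor that joined them was Spon6F in 1 of the 3 bins of chromosome 4 and in all 3 of chromosome 19, and Spon5F in the other two bins of chromosome 4. Chromosome 19 had the lowest mean of all autosomes, -0.15 ± 0.16, and was below 0 in 5 of 6 tumors: -0.26 in Spon1M, -0.42 in Spon2M, -0.02 in Spon3F, -0.08 in Spon4F, 0.02 in Spon5F and -0.15 in Spon6F. It was the autosome with an unadjusted limma p under 0.05 (0.028, adjusted p = 0.503), and the exact sign permutation test gave a two-sided p of 0.0625 (0.495 adjusted over 19 autosomes). Chromosome 4 had a mean of -0.11 ± 0.16 (limma adjusted p = 0.503) and was below 0 in 5 tumors. With sex as a term in the fit, both passed: -0.20 for chromosome 19 (limma adjusted p = 0.013) and -0.15 for chromosome 4 (limma adjusted p = 0.0216). The value of that fit is the midpoint of the male and the female mean. The 2 males, both on slide 3, thus weighed as much as the 4 females. On chromosome 4 the males read -0.21 in Spon1M and -0.38 in Spon2M. The females read 0.04 in Spon3F, -0.03 in Spon4F, -0.0078 in Spon5F and -0.05 in Spon6F. On chromosome 19 the females lay between -0.15 and 0.02. Only chromosome 3 was below 0 in all 6 tumors, at -0.09 to -0.0047 (mean -0.04 ± 0.03, exact two-sided p = 0.0312, which is the smallest that 6 tumors allow, 0.495 adjusted).

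The slides were compared bin by bin. Between slide 3 and slide 2, 0 of 479 bins (0%) differed with limma at an adjusted p under 0.05 and 31 at an unadjusted one. Without Spon5F, 2 bins of chromosome 17 (40 to 50 Mb) differed, which is the region amplified in Spon6F, then the only tumor of slide 2. Of the bins of each tumor, 364 of 1916 were shifted on slide 3 and 86 of 958 on slide 2. Over the 479 bins, Pearson's r between 2 tumors of the same slide ranged from -0.05 to 0.44 (7 pairs), and between slides from -0.27 to 0.36 (8 pairs). Neighboring bins of 1 chromosome are not independent, and these values are descriptions. The highest, 0.44 between Spon1M and Spon4F, was 0.29 without chromosomes 12 and 18, and the 0.36 between Spon3F and Spon6F was 0.09.

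Among genes with at least 2 probes, 2126 of 61896 gene and tumor pairs (3.43%) reached 0.4 and 2647 (4.28%) reached -0.4. These shares are the measure for 8 lists of liver and cancer genes, of which 134 genes had at least 2 probes and 60 had 1. No member of any list passed limma over all genes. The study's own genes came from regions often amplified in its tumors after partial hepatectomy. Crem was singled out there partly because spontaneous tumors amplified it too, so for that region the list is not independent of these tumors. The list had 16 of 102 pairs gained and 2 lost, 12 of the gains in Spon3F and Spon6F on chromosome 18. The others were Cdk6, Akap9 and Pftk1 of chromosome 5 in Spon1M (0.51, 0.48 and 0.48), and Zeb1 in Spon2M (0.44).

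Of 28 measured tumor suppressors, 7 of 168 pairs were gained and 10 lost. Rb1 was lowest in Spon5F, at -0.97 (0.512-fold) in 2 probes, below its bin (-0.49). It read 0.03 in Spon1M, 0.41 in Spon2M, -0.06 in Spon3F, -0.04 in Spon4F and -0.26 in Spon6F. Fhit read -0.65 in Spon5F as well. Cdkn2a was lowest in Spon2M (-0.63), followed by -0.24 in Spon1M, -0.17 in Spon6F, -0.15 in Spon4F, -0.08 in Spon5F and -0.04 in Spon3F. Its 2 probes thus averaged below 0 in 6 of 6 tumors (mean -0.22, SE 0.08, limma adjusted p = 0.328). Its bin read -0.27 in Spon1M, -0.47 in Spon2M, -0.07 in Spon4F and -0.09 in Spon6F, but 0.04 in Spon3F and 0.0071 in Spon5F. Smad2, a transducer of TGF-beta signals on chromosome 18, read 0.57 in Spon2M and 0.40 in Spon4F, where that chromosome was gained, and -0.52 in Spon6F, where it was lost. It read lowest in Spon5F, at -0.69 in 2 probes, although its bin was at -0.11 there. Apc, which holds back beta-catenin, read -0.68 in Spon6F, below its bin (-0.34). It has 2 probes, 1 of which was counted among those that stood apart from their neighbors. Atm, a DNA damage kinase, read 0.70 in Spon1M, inside the gained part of chromosome 9. Trp53 stayed between -0.16 and 0.17. Tgfbr2, a receptor of TGF-beta, lay above 0 in all 6 tumors, from 0.06 to 0.38 (mean 0.23, SE 0.06, limma adjusted p = 0.277). It has 2 probes, and its bin did not share this. The bin read 0.21 in Spon1M, -0.13 in Spon2M, -0.05 in Spon3F, 0.14 in Spon4F, -0.0021 in Spon5F and -0.02 in Spon6F. A dye effect of these probes was not tested.

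**Figure D4:**
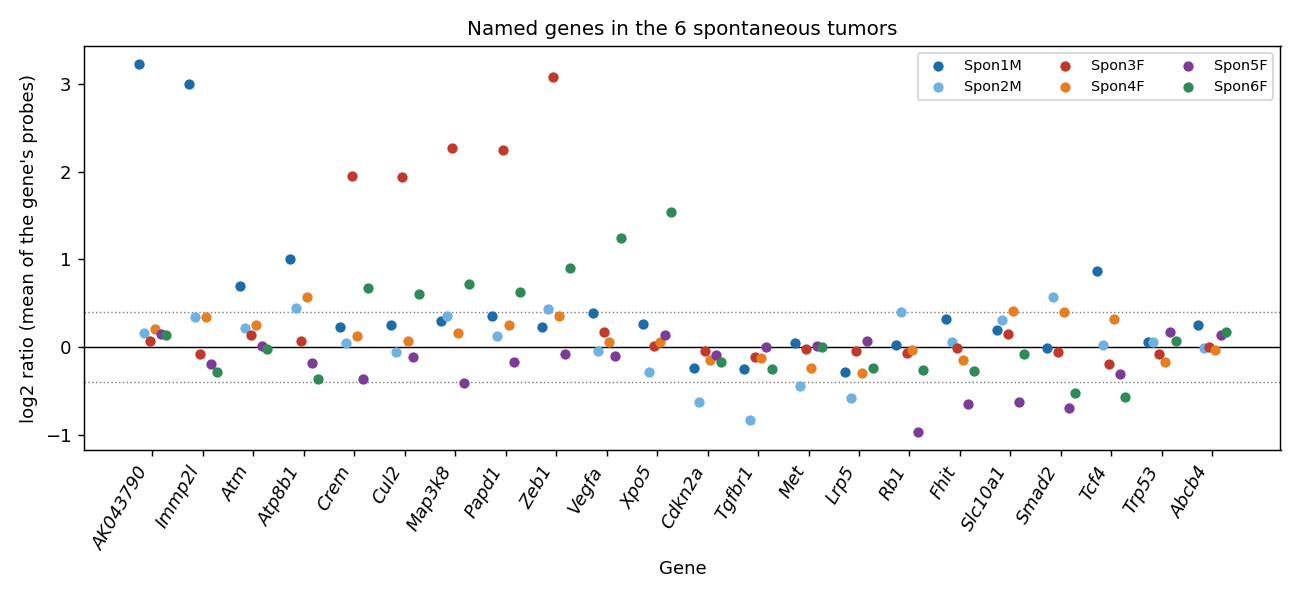
Mean log2 ratio of the probes of 22 named genes in each tumor (1 point per tumor, dotted lines at -0.4 and 0.4). AK043790 and Immp2l are high only in Spon1M (3.22 and 3.00), genes from Crem to Zeb1 in Spon3F and less so in Spon6F, Vegfa and Xpo5 in Spon6F, and Rb1 is lowest in Spon5F (-0.97).

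Of 19 measured growth genes, 7 of 114 pairs were gained and 5 lost. Without the genes that hold a probe over 0.8 from its neighbors, 2 of 96 pairs were gained (2.08%) and 1 lost (1.04%), against 3.04% and 2.72% of all genes chosen in that way. For the tumor suppressors this left 4 of 144 pairs gained and 5 lost, and for the inflammatory and fibrosis genes 1 of 84 gained and 3 lost. Vegfa outside Spon6F lay between -0.10 and 0.39. Met, the receptor of hepatocyte growth factor, read -0.44 in Spon2M and -0.24 in Spon4F. Ccnd1, with 1 probe, lay between -0.27 and -0.08 in 5 tumors and at 0.72 in Spon2M, where its bin was at -0.07. Inflammatory and fibrosis genes had 2 of 96 pairs gained and 6 lost. Among them Tgfbr1 (-0.82) and Rela (-0.43), an NF-kappaB subunit, lay on the lost chromosomes 4 and 19 of Spon2M. Stat3, on chromosome 11, read 0.57 in that tumor in 2 probes, although its bin was at 0.13. The beta-catenin list had 1 of 78 pairs gained and 3 lost, with Lrp5, a Wnt co-receptor on chromosome 19, at -0.58 in Spon2M. Without the genes that hold a probe over 0.8 from its neighbors, 0 of 60 pairs of that list were gained and 2 lost (3.33%). Genome stability genes had 1 of 102 pairs gained and 2 lost.

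Several genes of hepatocyte identity and bile transport lay on shifted chromosomes. Of 10 hepatocyte genes, 5 of 60 pairs were gained (8.33%) and 0 lost, against 3.43% and 4.28% over all genes. Of these 5 gains, 2 were in Spon1M, 2 in Spon2M and 1 in Spon5F. Among them were Prox1 (0.51) and Nr5a2 (0.43) on the gained chromosome 1 of Spon2M. Nr5a2 read 0.43 in Spon5F too, where its bin was at -0.0067. Prox1 read -0.27 in Spon3F, whose end of chromosome 1 was lost. Of 16 bile transport genes, 6 of 96 pairs were gained and 5 lost. Atp8b1, a phospholipid flippase of the canalicular membrane, read 2.01-fold in Spon1M, and on the log2 scale 0.57 in Spon4F and 0.45 in Spon2M, the 3 tumors with gains of chromosome 18, and -0.36 in Spon6F. Slc10a1, the sodium-dependent bile acid uptake carrier on chromosome 12, read 0.41 in Spon4F and -0.63 in Spon5F. Abcc2, a canalicular export pump on chromosome 19, read -0.64 in Spon2M. Abcb11, the bile salt export pump on chromosome 2, read 0.50 in Spon5F. Abcb4 itself lay between -0.04 and 0.25. Whether any of these copy numbers altered expression was not measured on these arrays.

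Another pattern lay in single probes rather than regions and bears on gene values. In Spon3F 1475 autosomal probes read -1 or less and in Spon1M 417, of which 343 were shared. In the other tumors 8 to 95 probes read so low. These 343 probes, chosen by those 2 tumors, were spread over all 19 autosomes (0.435% to 1.17% of the probes of each). In Spon2M, which did not serve to choose them, 302 of 342 read 1 or more, with a median of 1.96. In Spon4F, Spon5F and Spon6F their median ratios were 0.19, 0.10 and 0.06. The channels differed by array in a way the ratio does not show. As a share of the array's median signal, the liver (green) and tumor (red) signals of these probes were 117% and 31.2% in Spon1M and 104% and 20.1% in Spon3F. In Spon2M the order was turned, with 29.2% and 113%. In Spon4F both were low, at 29.8% and 33.5%, and on slide 2 both were high, at 121% and 128% in Spon5F and 121% and 133% in Spon6F. Spon1M and Spon3F served to choose the probes, so the low ratio of red to green on those 2 arrays was set by the choice. Among the other arrays, low signals of these probes occurred in the liver DNA of Spon2M and in both DNA samples of Spon4F, both of slide 3. They occurred in neither sample of the 2 mice of slide 2. The cause was not tested, and slide and mouse cannot be told apart.

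**Figure D5:**
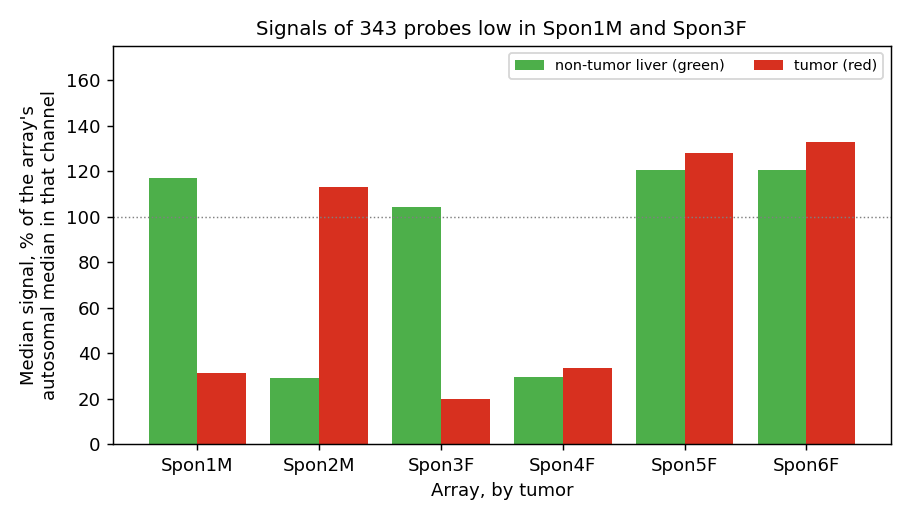
Median processed signal of the 343 probes low in both Spon1M and Spon3F, as a percent of the median of all autosomal probes in the same channel of each array, for liver DNA (green bars) and tumor DNA (red bars). The red bar is low in Spon1M (31.2%) and Spon3F (20.1%), the green bar in Spon2M (29.2%), both in Spon4F, and neither in Spon5F and Spon6F.

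Several genes with few probes held such probes. Igf2 read -1.38 in Spon1M, 0.99 in Spon2M and -0.89 in Spon3F, while its bin read -0.07 in Spon2M and -0.06 in Spon3F. Axin2 (-0.68, 0.80 and -1.66), Col1a1 (-0.72, 1.06 and -2.18), Arid2 (-0.61, 0.93 and -0.93), Abcc4 (-0.50, 0.98 and -0.96) and En1 (-1.28, 1.14 and -1.59) behaved alike, with at least 1 probe that read -1 or less in Spon1M or Spon3F. Akt1 read -1.43 in Spon3F and 2.15-fold in Spon2M. The lowest gene of Spon3F, Bop1 (-2.53), belonged here, as did the highest of Spon2M, Bop1 (1.75) and Prrc1 (1.55), and the lowest of Spon1M, D930010J01Rik (-1.67). Casz1, also among the lowest of Spon3F (-2.34, bin at 0.05), held low probes too. It was not raised in Spon2M, where it read -0.23, and it read -0.43 in Spon1M. With probes that stood over 0.8 from their neighbors left out, Arid2 read -0.08, 0.20 and -0.04. The probe of Myc read -3.20 in Spon3F, where its bin was at 0.04, so it gives no copy number in that tumor. In Spon1M the 22 probes of the amplified stretch read 0.66 to 3.39. Spon3F also held 5 short stretches of 5 or 6 probes on chromosomes 7, 8 and 10, with medians of -2.76 to -0.84 over 0.033 to 0.0988 Mb, and the same probes had medians of -0.28 to 0.15 in Spon2M. Bin and chromosome values are medians over at least 10 probes. With the single probes left out, 450 bins were shifted, the same number as before.

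Most of the other highest and lowest genes of at least 3 probes lay on shifted chromosomes or in amplified stretches. In Spon4F, Rhoj (0.70) and Nin (0.60) of chromosome 12 were highest, and Nin read 0.56 in Spon1M, 0.60 in Spon2M and -0.63 in Spon5F. In Spon5F, AK014794 (-0.81) of chromosome 14 and Mtac2d1 (-0.79) of chromosome 12 were lowest, and Abtb2 (0.57) of chromosome 2 was highest. In Spon6F, Tcf4 (-0.57) and Dcc (-0.52) of chromosome 18 were lowest, and Tcf4 read 0.87 in Spon1M. In Spon2M, 4930500O09Rik (-0.80) of chromosome 4 and Syt7 (-0.74) of chromosome 19 were lowest. In Spon6F, Crip3 (1.58) and Xpo5 of the amplified part of chromosome 17 were highest, and 1 of the 3 probes of Crip3 stood apart from its neighbors. Chromosomes not called shifted held Hspc171 (0.53) of chromosome 8 in Spon5F, and the lowest genes of Spon4F, Ms4a4b (-0.45) of chromosome 19 and Bdp1 (-0.44) of chromosome 13.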

How the data were processed

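Per the file headers, the arrays were Agilent mouse 44K aCGH arrays read with Feature Extraction 10.5.1.1, with probes placed on mm8. The authors deposited, for each spot, processed signal intensities (background-subtracted and scaled per dye) and the log10 ratio of tumor (red) over liver (green). Here these ratios were converted to log2. Control features and spots flagged as outliers (108 to 424 per array) were dropped, replicate spots were averaged by probe, and the autosomal median of each array was set to 0. Bins of 5 Mb (at least 10 probes) and chromosomes are medians of probes, and genes (at least 2 probes, names of the files) means. Values of the 6 tumors were tested against 0, and slides against each other, with limma 3.58.1 in R 4.3.3, with Benjamini-Hochberg adjustment over all features. The fit was tested on simulated data, drawn independently with the spread of each feature and with the same shift in all 6 tumors. Of 100 genes shifted by 0.2 it called 8, and of 100 shifted by 0.4 it called 55. Of 100 bins it called 82 and 94. A count of 0 genes thus does not show that no gene was shifted. Real neighboring bins are not independent, and real shifts differed between tumors. Single chromosomes were also tested with the exact sign permutation test. Python 3.11.15 was used otherwise. Each tumor is 1 mouse, so p-values measure the spread between mice. Arrays carry no counts, and their number limits the precision.

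Named were all autosomes, the highest and lowest bins and genes (at least 3 probes) of each tumor, bins at 0.2 or more on 1 side in at least 4 tumors, and list members at 0.4 in a tumor other than Spon1M and Spon3F or at 0.2 on 1 side in at least 3, with 10 genes always included. List members not named are covered by their counts. The genes, lists and thresholds were chosen with earlier results of these data known. The alternatives were normexp background correction (offset 50), ratios left uncentred or centred on their mode, dim probes removed, flagged spots retained, error-weighted means, bins of 2 or 10 Mb, genes of 1 or 3 probes or by the median, slide or sex in the fit, 1 slide alone, array weights, and tumors left out. The authors' own aberration calls, made with ADM-2, were not used here, and some genes are not reported here.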

Additional observations from a re-analysis of the deposited data

Results flagged for a closer look

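Sets of 6 values were tested for 19 autosomes and 50 genes. Genes named as the highest or lowest of a tumor, such as AK043790 and Immp2l, were not among the 50. Of the 69 sets, 12 held a tumor that stood apart from the other 5 by more than Dixon's 95% limit for the gap as a share of the range. Chance marks about 5% of sets not chosen by their values. That rate does not apply to the 50 genes, many of which were named for an extreme value. Among autosomes these were chromosome 1 in Spon2M (0.28), chromosome 2 in Spon5F (0.19), chromosome 6 in Spon2M (-0.24) and chromosome 14 in Spon5F (-0.47). Among genes, Cul2 (1.93), Papd1 (2.24) and Zeb1 (3.08) stood apart in Spon3F, all within the amplified end of chromosome 18, and Vegfa stood apart in Spon6F (1.24). In Spon2M 4 genes stood apart: Cdkn2a (-0.63) and Tgfbr1 (-0.82) on the lost chromosome 4, Stat3 (0.57), and Ccnd1 (0.72), which has 1 probe and whose bin was at -0.07. The bin of Stat3 was at 0.13.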

How the results depend on the processing

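The test against 0 is itself paired, because each value is a ratio of tumor over liver within 1 mouse. No further pairing was possible, since only 1 group is described and tumor numbers pair nothing. The counts of 0 called autosomes, bins and genes stayed at 0 with every alternative but the following. With sex as a term, 2 autosomes passed (chromosomes 4 and 19, both lower). With normexp correction 585 of 10316 genes passed, 257 higher and 328 lower. With slide as a term 1 gene passed, Mfhas1. Leaving out 1 tumor left 0 autosomes, bins and genes, and gave 0 to 2 bins for the slide difference, the 2 without Spon5F, where Spon6F alone stood for slide 2 and was assumed to vary like the others. Unadjusted counts ranged from 0 to 4 autosomes, 13 to 88 bins and 249 to 2898 genes. The 450 shifted bins became 1075 of 6690 with 2-Mb bins and 233 of 1518 with 10-Mb bins, where the number of bins differs, and 282 to 445 when a tumor was left out, with 282 without Spon2M.

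Under the alternatives, the means of 6 autosomes were followed. Those of the other autosomes were not, some of which lay near 0, such as chromosome 1 (-0.0044), chromosome 2 (0.0076) and chromosome 17 (-0.0041). Of the 6, the means that turned direction were those of chromosome 13 (0.0050), chromosome 12 (-0.17) and chromosome 18 (-0.20) with slide 2 alone. Chromosome 18 also turned with array weights (-0.054), slide as a term (-0.015) and without Spon4F (-0.0057). Among the values at 0.4 or more, Fos in Spon3F turned to 0.12 with the median of its probes and to 0.13 with single probes left out, and Rb1 in Spon2M to -0.070 with normexp. Of the values of single genes at 0.4 or more under each alternative, 695 moved by under 0.2, 79 by more and 3 turned direction. The alternatives that leave out single probes, or the arrays of Spon1M and Spon3F, were added after seeing the data. With 1 array per tumor and no dye swap, no shift of a single tumor has a replicate check, and the spread between neighboring probes limits genes of 2 probes most.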

Other observations

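The tumors opposed each other over 56 bins, which were gained in at least 1 tumor and lost in at least 1 other. Chromosome 1 held 19 of them, chromosome 18 held 16, chromosome 12 held 10 and chromosome 14 held 9. Of 479 bins, 201 were shifted in no tumor.

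Mfhas1 had the smallest p of all genes and was chosen here after its values were seen. It lay above 0 in all 6 tumors, at 0.49 in Spon1M, 0.65 in Spon2M, 0.64 in Spon3F, 0.69 in Spon4F, 1.01 in Spon5F and 1.14 in Spon6F (limma adjusted p = 0.196, and 0.00454 with slide as a term). The value came from 1 of its 2 probes, which read 0.85 to 2.03, while the other read 0.02 to 0.25 and 8 probes around the gene had medians of -0.12 to 0.22. Without dye swaps, a dye effect of that probe and a difference in the tumors cannot be told apart. Atp11b, which read -0.52 to -0.29, and Pou1f1, which read 0.21 to 0.36, also lay on 1 side of 0 in all 6 tumors (limma adjusted p = 0.255 and 0.277).

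The X chromosome, left out of the comparisons, had medians of -0.13 in Spon2M and 0.14 in Spon4F and lay within 0.1 of 0 in the other tumors.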
